A study of Mus musculus with 3 samples.

Results

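Tac1-high interneurons were taken as the cells with at least 3 UMIs of Tac1, the gene of the tachykinin precursor that yields substance P and neurokinin A, and with 0 UMIs of Nos1, Amelx and Irs4. Cells also had to hold more than 700 genes and less than 10% mitochondrial UMIs. A UMI is a molecular identifier that counts 1 captured mRNA molecule. The rule kept 159 Tac1-high cells of 9433 cells that passed quality control and 12324 cells in all. The E16.5 library held 70 of them among 3952 cells (1.77%, 95% interval 1.38 to 2.23), the P1 library 33 among 2501 (1.32%, 0.910 to 1.85) and the P5 library 56 among 2980 (1.88%, 1.42 to 2.43). The intervals are Clopper-Pearson intervals, which overlapped between all stages and cover counting error only.

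The cells came from the neocortex (NCx) of SstCre/+;RCEfl/+ mice, in which Cre under the control of the Sst gene switches on a green fluorescent reporter from a floxed Rosa26 allele. GFP+ cells were sorted and their mRNA was counted cell by cell with 10x Chromium 3′ sequencing. There was 1 library per stage, made from a pool of 6 animals for E16.5 and of 3 for each postnatal stage, and all animals carried the same alleles. Because the reporter records any past Sst-Cre activity, a sorted cell need not contain Sst mRNA at the time of collection. With 1 library per stage there is no replicate, stage cannot be told apart from library, and no test was made.

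Tachykinins act on G protein-coupled receptors of the Tacr family. In the cortex, Tac1 is known from several kinds of GABAergic neuron, among them parvalbumin (PV)-expressing basket cells and some somatostatin (SST) cells. SST+ neurons are grouped in this field into Martinotti cells (MCs), whose axons ascend to layer 1, non-Martinotti cells (nMCs), which innervate deeper layers, and long-range projection (LRP) neurons, which contain Nos1. Tac1 lies on chromosome 6 from 7554879 to 7565834 (plus strand, GRCm38). Mme, at chromosome 3 from 63241537 to 63386030, and Nxph2, at chromosome 2 from 23321246 to 23401973, are the other markers of the label and also lie on the plus strand. The rule did not use either of them.

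Every value below sets Tac1-high cells against comparison cells of the same library, with 0 UMIs of Tac1 and Nos1 and at least 1 UMI of Lhx6, a transcription factor of interneurons from the medial ganglionic eminence. There were 3096, 1532 and 1755 comparison cells, respectively. They were a mixture of SST+ types and, unlike the Tac1-high cells, could contain Amelx or Irs4. Levels are the UMIs of the summed cells scaled to a total of 1000000 (CPM), and differences are log2 ratios with 1 CPM added to both levels. Brackets after a log2 ratio hold its 95% Poisson interval, computed without the added CPM, which covers counting error and not the spread between cells or animals. A gene was measured well enough to be counted in a library when at least 10 UMIs were expected in the Tac1-high cells at the pooled rate. It was counted as higher or lower from a 2-fold difference. The pooled rate came mostly from the comparison cells. A gene called too low to be counted had fewer than 10 expected UMIs, whatever its UMIs in Tac1-high cells.

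The summed Tac1-high cells held 499799, 228199 and 287833 UMIs at E16.5, P1 and P5, so a gene with 0 UMIs may still have been present at up to 6.00, 13.1 and 10.4 CPM. Their median depth was 6177, 6274 and 4653.5 UMIs per cell, against 5816, 3745.5 and 4732 in comparison cells, so depth differed most at P1. Median mitochondrial shares were 4.05%, 6.32% and 4.64%, against 4.04%, 6.25% and 4.29%. Between 1 and 6 cell barcodes were shared by each pair of libraries, and no Tac1-high cell carried a shared one.

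Tac1 was scarce in cells that should lack it. Among cells with excitatory mRNA and no Gad1, Gad2 or Lhx6, Tac1 was seen in 1 of the 32 found at E16.5 (3.13%) and in none of the 27 and 21 found at P1 and P5 (0 cells), where a count of 0 allows up to 11.1% and 14.3%. Their median depths were 11243.5, 5316 and 3463 UMIs. Among the more numerous cells with at least 3 Nos1 UMIs, a Tac1 UMI was seen in 2.18% at P1 (6 of 275, median 3768 UMIs) and 0.686% at P5 (3 of 437, median 3120 UMIs). At E16.5 it was seen in 1 of 16.

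The label was checked against interneuron genes. Lhx6 mRNA was detected in 78.6%, 90.9% and 83.9% of the Tac1-high cells, and Gad1, which encodes a GABA-synthesizing enzyme, in 80.0%, 75.8% and 58.9%. In comparison cells Gad1 was detected in 70.6%, 58.4% and 46.4%. Chodl, a marker of LRP neurons next to Nos1, had 3, 9 and 6 UMIs in total. Markers of other cells were sparse. The 9 glial genes summed to 46.0, 39.4 and 45.2 CPM, against 31.3, 36.7 and 38.6 CPM in comparison cells. The 6 microglial and 7 vascular or blood genes reached at most 13.1 CPM, and the 5 genes of cycling cells lay between 6.95 and 20.0 CPM, against 9.01 to 22.3 CPM. Olig1, Olig2, Pdgfra, Aqp4, Cx3cr1, Cldn5 and Vip had 0 UMIs in Tac1-high cells of every library.

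The label did not hold for 5 of the 70 cells at E16.5. Of these, 4 held between 34 and 70 UMIs over 13 genes of striatal projection neurons, where the other 65 cells held at most 4. The remaining cell held 15 UMIs over 8 genes of excitatory neurons and was also the Tac1-containing cell of the excitatory set above. No Lhx6 UMI was seen in any of the 5, and they carried 253 of the 604 Tac1 UMIs at E16.5. Interneuron genes were not seen in all of the other 65 either, as 10 held no Lhx6 UMI and 5 held neither Gad1 nor Gad2. Striatal projection genes summed to 472 CPM in Tac1-high cells at E16.5, against 67.5 CPM in comparison cells. Without the 5 cells they summed to 51.9 CPM. At P1 and P5 they stood at 87.6 and 86.9 CPM, against 85.8 and 86.7 CPM, and no cell stood apart. Isl1 (30 UMIs), Ebf1 (45 UMIs), Meis2 (74 UMIs) and Zfhx3 (54 UMIs) had 0 UMIs in Tac1-high cells at P1 and P5, and Zfhx3 went from a log2 ratio of 5.34 to -1.43 without the 5 cells. The larger moves of E16.5 values without the 5 cells are given beside those values.

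Tac1 itself chose the cells, so its level is a description. The median Tac1-high cell held 5, 6 and 5 Tac1 UMIs at E16.5, P1 and P5, and the highest 110, 28 and 21. Without the 5 cells the highest value at E16.5 was 23. Cells at the threshold of 3 UMIs numbered 20, 2 and 13, and cells just under it, with 2 UMIs, numbered 29, 12 and 23. A further 111, 39 and 55 cells held 1 Tac1 UMI. Summed levels of Tac1 were 1208, 1310 and 1275 CPM, and 828 CPM at E16.5 without the 5 cells.

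**Figure D1:**
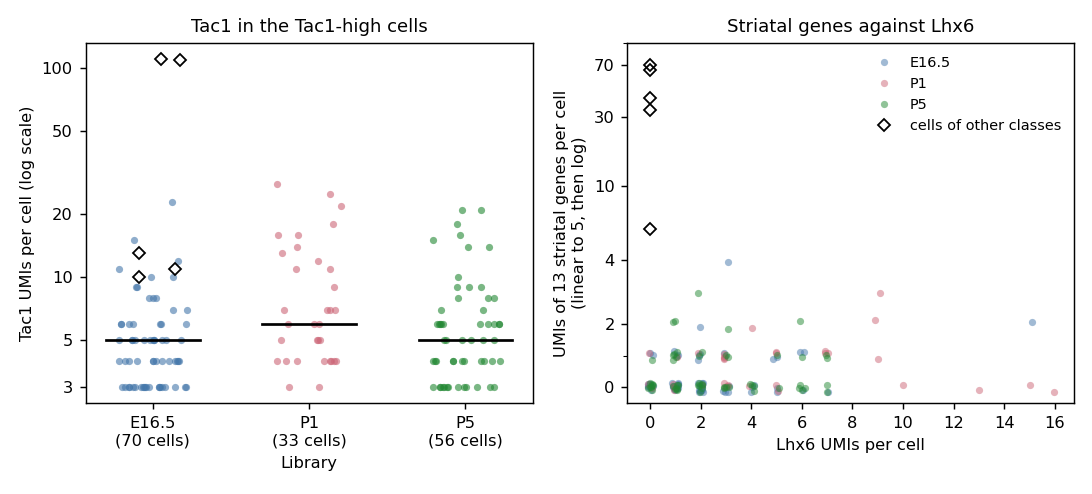
Left, Tac1 UMIs per cell (log axis) of each Tac1-high cell by library, with bars at the medians of 5, 6 and 5. Right, UMIs of the 13 striatal projection genes (linear to 5, then log) against Lhx6 UMIs per cell. The 5 cells with striatal or excitatory mRNA, drawn as open diamonds, hold no Lhx6 and include the cells with 110 and 109 Tac1 UMIs, while the postnatal cells lie between 3 and 28 Tac1 UMIs.

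Both other markers of the label were more abundant in Tac1-high cells in every library. The label was made with earlier results of these data known, so their direction is not independent evidence. Mme encodes neprilysin, a membrane peptidase that cleaves substance P among other peptides. It had 12 CPM in Tac1-high and 3.73 CPM in comparison cells at E16.5 (6 UMIs), 65.7 and 17.7 CPM at P1 (15 UMIs), and 115 and 14.6 CPM at P5 (33 UMIs). Its log2 ratios were 1.46 [0.20, 2.88], 1.83 [1.02, 2.67] and 2.89 [2.38, 3.54], but its counts were too low to be included among the counted genes. Mme was detected in 7.14%, 30.3% and 39.3% of Tac1-high cells, against 2.26%, 7.11% and 5.98% of comparison cells. When every cell was thinned to 2000 UMIs, the shares at P5 were 18.5% (9.25 to 31.4) and 2.76% (2.01 to 3.70). At P1 the thinned shares were 0 of 28 Tac1-high cells and 3.84% of comparison cells, which goes against the CPM, so no order was read from the shares at P1.

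Nxph2 encodes a neurexophilin, a secreted ligand of α-neurexins at synapses. It had 158 and 82.7 CPM at E16.5, 140 and 70.3 CPM at P1, and 69.5 and 23.7 CPM at P5, with log2 ratios of 0.93 [0.59, 1.26], 0.99 [0.43, 1.51] and 1.51 [0.81, 2.22]. It was detected in 48.6%, 45.5% and 26.8% of Tac1-high cells, against 30.0%, 21.4% and 9.46% of comparison cells. Thinned to 2000 UMIs, the shares were 24.3%, 25.0% and 13% against 15.3%, 13.4% and 4.43%. The level of Nxph2 was thus lower at P5 than at E16.5 in both sets of cells while Mme was higher. Among Tac1-high cells, 5 of 33 (P1) and 5 of 56 (P5) held both genes, where independent detection would give 4.55 and 5.89.

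The other tachykinin genes gave little signal. Tac2, the neurokinin B precursor, had 1 UMI in all Tac1-high cells and Tac4 had 0. Of the receptor genes, Tacr1, whose product binds substance P, had 2, 0 and 1 UMIs, and Tacr2 and Tacr3 had 0. Nothing can be read from these counts beyond the floors given above.

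Genes for peptide processing and storage had medians close to the comparison level, with single members above it. Of the 12, 9, 10 and 10 had enough counts at E16.5, P1 and P5. Their median log2 ratios were 0.03, 0.03 and 0.16, beside -0.01, -0.04 and -0.03 over all genes counted. Cpe, the carboxypeptidase that trims peptide precursors, had ratios of -0.03, -0.01 and 0.07. Pcsk2, a prohormone convertase, had 0.03, 0.02 and -0.15, and -0.49 at E16.5 without the 5 cells. Of the granins of dense-core vesicles, Chga had 0.78 [0.32, 1.23], 0.44 [-0.38, 1.16] and 0.64 [0.13, 1.12], and Chgb had 0.31, 0.44 and 0.37. The amidating enzyme Pam had 0.07, -0.48 and -0.43. Scg2, a further granin, had 50.0 and 10.3 CPM at E16.5 (ratio 2.18 [1.62, 2.88], too low to be counted, and 1.38 without the 5 cells), 118 and 54.3 CPM at P1 (1.11 [0.50, 1.69]) and 83.4 and 64.7 CPM at P5 (0.36 [-0.29, 0.95]). Among peptidases other than Mme, Ece2 (0.15, 0.13 and 0.34), Prep (-0.11, 0.09 and 0.03) and Nln (0.01, 0.65 and -0.53) had intervals that included 0 in each library, and Anpep and Dpp4 had 0 UMIs.

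Other neuropeptides set the Tac1-high cells apart, in both directions. Sst was lower in each library, with 2127 and 2979 CPM at E16.5, 416 and 1571 CPM at P1, and 639 and 1485 CPM at P5. The log2 ratios were -0.49 [-0.58, -0.40], -1.91 [-2.22, -1.62] and -1.21 [-1.43, -1.01]. Sst mRNA was detected in 58.6%, 51.5% and 55.4% of Tac1-high cells, against 77.3%, 71.7% and 72.7% of comparison cells. Neuropeptide Y (Npy) was at 149 CPM against 1256 CPM at P1 and at 219 CPM against 855 CPM at P5, with ratios of -3.07 [-3.61, -2.59] and -1.96 [-2.35, -1.61]. At E16.5 its ratio was -0.20, and 3 cells held 238, 191 and 127 of its 731 UMIs. In these 3 cells Mef2c and Erbb4 had 0 UMIs.

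Cort, which encodes the somatostatin-related peptide cortistatin, ran the other way, most clearly at P5. It stood at 92.0 and 65.9 CPM at E16.5, at 232 and 173 CPM at P1, and at 1258 and 534 CPM at P5. The log2 ratios were 0.48 [0.02, 0.91], 0.42 [0.00, 0.82] and 1.23 [1.08, 1.39]. At E16.5 17 of its 46 UMIs came from 1 cell, and it was detected in 17.1% of Tac1-high and 16.1% of comparison cells. At P5 Cort was detected in 45 of the 56 cells (80.4%), against 41.2% of comparison cells.

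Cck, the cholecystokinin gene, was at 22 and 18.7 CPM at E16.5, at 298 and 32.1 CPM at P1, and at 229 and 44.8 CPM at P5. Its log2 ratios were 0.22 [-0.78, 1.09], 3.17 [2.80, 3.61] and 2.33 [1.96, 2.73]. At E16.5 and P1 fewer than 10 UMIs were expected at the pooled rate, so Cck was not counted there. At P1 its 68 UMIs came from 10 cells, of which single cells of 14375, 11899, 14278 and 13021 UMIs held 16, 16, 14 and 10. It was detected in 30.3% and 37.5% of Tac1-high cells at P1 and P5, against 7.25% and 7.75%, and after thinning in 28.6% and 24.1% against 4.80% and 5.14%. Cck is also known from interneurons of the caudal ganglionic eminence. The 8 genes of that list, Cck and Vip among them, summed to 302 CPM at P1 and 229 CPM at P5, against 35.8 and 46.8 CPM in comparison cells, so nearly all of the sum was Cck. Pdyn, the prodynorphin gene, was at 6.95 CPM (2 UMIs) against 127 CPM at P5, a log2 ratio of -4.01 [-7.24, -2.33]. Penk (9 and 15 UMIs at P1 and P5) had ratios of 2.00 and 1.66, but 5 and 9 of these UMIs were from single cells. Pnoc, which encodes nociceptin, had ratios of -0.64, 0.43 and 0.90, and -1.17 at E16.5 without the 5 cells.

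**Figure D2:**
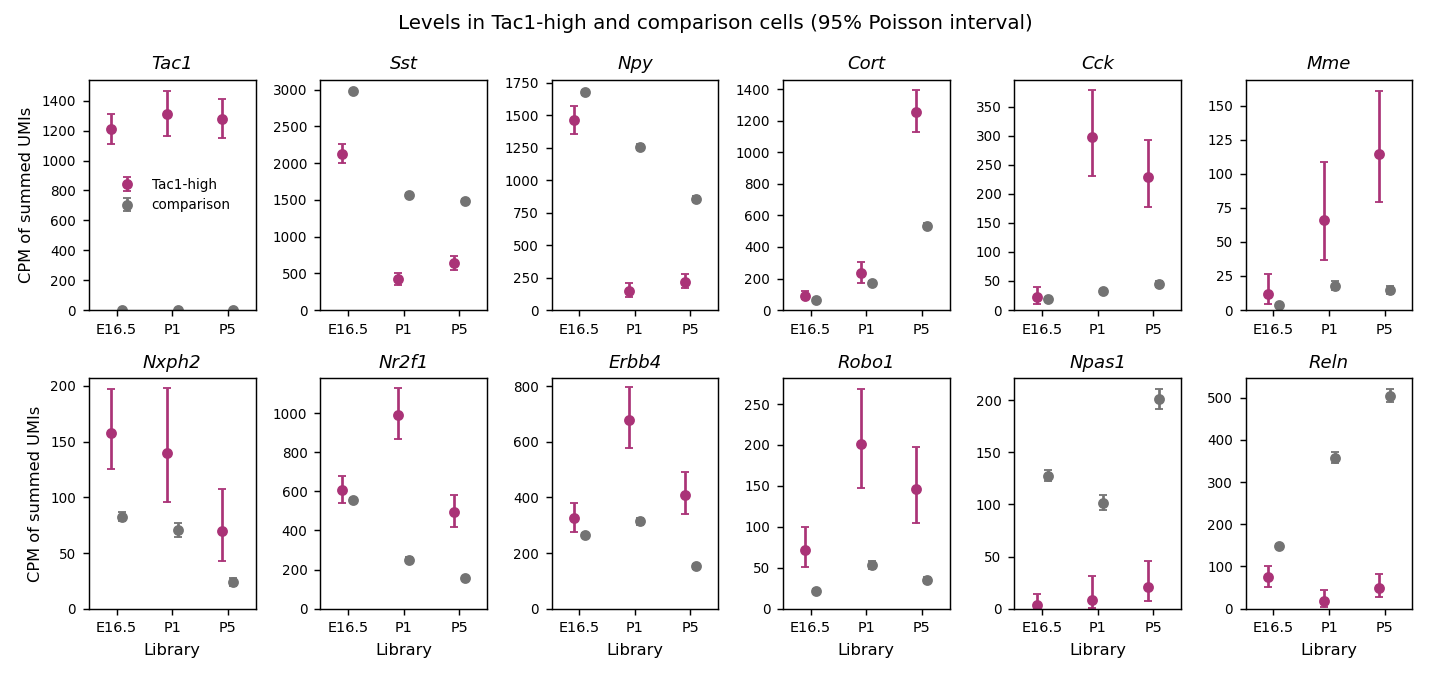
Level in CPM (linear axes from 0, a scale for each gene) of 12 genes in Tac1-high and comparison cells by library, with bars for 95% Poisson intervals from counting error. Mme at P5 (115 against 14.6 CPM) and Cck at P1 (298 against 32.1 CPM) lie above the comparison cells, while Sst lies below them in each library. These values rest on 33 Mme and 68 Cck UMIs. Fewer than 10 were expected at the pooled rate, so neither gene was counted there.

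Across all genes with enough counts, few differed 2-fold. At E16.5 59 of 6793 genes were higher (0.869%) and 113 lower (1.66%). At P1 these were 69 of 4549 (1.52%) and 183 (4.02%), and at P5 65 of 5091 (1.28%) and 260 (5.11%). Of 4045 genes counted in all 3 libraries, 4 were at least 2-fold higher in each (0.0989%) and 18 at least 2-fold lower in each (0.445%). With every cell thinned to 2000 UMIs, where counts were fewer, these were 1 and 8. When genes with at least 10 UMIs in Tac1-high cells were counted as well, 19 were higher and 18 lower. That wider filter admits genes through the cells where they are high, while the main filter can leave such genes out.

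The 4 genes higher in all libraries were Robo1, Lgi2, Fam19a2 and Il1rapl1. Robo1, a receptor for the guidance cue Slit, was at 72.0 and 21.4 CPM at E16.5, 202 and 53.3 CPM at P1, and 146 and 34.7 CPM at P5, with log2 ratios of 1.71, 1.90 and 2.04. Without the 5 cells its ratio at E16.5 was 1.24, but fewer than 10 UMIs were then expected. Lgi2, a secreted leucine-rich protein of the epilepsy-linked Lgi family, had ratios of 1.73, 1.32 and 1.51. Thinned to 2000 UMIs per cell, its ratio at P1 was -0.011. Fam19a2, which encodes a secreted chemokine-like protein that binds neurexins, had 1.19, 2.24 and 1.89. Il1rapl1, a postsynaptic adhesion protein, had 1.29, 1.45 and 1.08. All 4 had intervals above 0 in each library. The choice of these genes depended on the rule for the cells. With at least 5 Tac1 UMIs, 2 genes passed in all libraries, Plxna4 and Ptn, and 0 of the 4 remained. With at least 1 Lhx6 UMI required, 2 of the 4 remained, and Lgi2 and Robo1 did not.

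In P1 and P5 alone, 14 of 4108 genes were higher in both (0.341%) and 65 lower in both (1.58%). The 14 added the neurotrophin-3 receptor Ntrk3 (log2 ratios of 0.86, 2.57 and 1.80 at E16.5, P1 and P5, and 0.45 at E16.5 without the 5 cells), the neuregulin receptor Erbb4 (0.30, 1.11 and 1.43), the orphan nuclear receptor Nr2f1 (0.13, 1.98 and 1.66) and the growth factor Ptn (0.75, 1.19 and 1.58) to the genes above. Rgs12, Cit, Phlda1, Pcdh17 and Nectin1 were also among the 14, and were named after their values were seen. Of genes in no list, Plxna4, a semaphorin co-receptor, had ratios of 1.69, 1.36 and 0.94. Gucy1a1, a subunit of the nitric oxide receptor, had 1.54, 0.89 and 1.33, and Sncb, β-synuclein, had 0.88, 1.53 and 0.98.

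The 18 genes lower in all libraries included Zbtb20, a transcription factor, at 32.0 and 187 CPM at E16.5, 30.7 and 626 CPM at P1, and 27.8 and 214 CPM at P5. At P1 5 of its 7 UMIs and at P5 4 of its 8 UMIs were from single cells. Sstr1, a somatostatin receptor, was at 14.0 and 44.5 CPM, 17.5 and 70.7 CPM, and 59.1 and 120 CPM, with log2 ratios of -1.60, -1.95 and -1.01. The collagen gene Col19a1 was at 8.0 and 38.7 CPM at E16.5 and 13.9 and 119 CPM at P5. At P1 it had 0 UMIs against 55.5 CPM and was at least 4.22-fold lower. Cdk14, Tmeff2, Tenm4 and Klf5 were also among the 18, with ratios between -2.63 and -1.07.

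The study's marker genes of MCs were mostly lower in Tac1-high cells. These 24 genes and 29 nMC genes, from which Tac1 was left out, were chosen by the study on these same libraries, so their direction is not independent evidence. Of the MC genes with enough counts, 13 of 21 were at least 2-fold lower at E16.5, and postnatally the numbers were 16 of 23 (P1) and 22 of 24 (P5). Over all counted genes the shares lower were 1.66%, 4.02% and 5.11%. Their median log2 ratios were -1.22, -2.31 and -1.89, and -1.17 at E16.5 without the 5 cells. With genes at 0 UMIs set to the floor of 3 UMIs, the medians at P1 and P5 were -2.16 and -1.89. Of the 21 genes counted in all libraries, 11 were lower in each.

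Npas1, a transcription factor, was at 4.0 and 128 CPM at E16.5 (2 UMIs), at 8.76 and 101 CPM at P1 (2 UMIs) and at 20.8 and 201 CPM at P5 (6 UMIs). Its log2 ratios were -4.68 [-8.04, -3.14], -3.39 [-6.58, -1.67] and -3.21 [-4.72, -2.14]. Nr2f2, also known as COUP-TFII, was at 32.0 and 135 CPM at E16.5, at 4.38 and 146 CPM at P1 (1 UMI), and at P5 had 0 UMIs against 164 CPM, at least 15.7-fold lower. Its ratio at P1 was -4.77 [-10.36, -2.57]. Reln, the extracellular protein reelin, was at 74.0 and 149 CPM, 17.5 and 358 CPM, and 48.6 and 505 CPM. Its level at E16.5 was 49.5 CPM without the 5 cells. The 4 UMIs of Reln at P1 came from 1 cell, and so did 10 of the 14 at P5. Grin3a, an NMDA receptor subunit, was at 60.0 and 145 CPM, 241 and 767 CPM, and 219 and 1654 CPM, with ratios of -1.26, -1.67 and -2.91. In both sets of cells the level of Grin3a was higher at P5 than at E16.5.

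Of the MC genes, 2 were higher at E16.5. Fxyd7, a regulator of the sodium pump, had 136 and 49.3 CPM and Cadm2, a cell adhesion molecule, 222 and 85.5 CPM. Their log2 ratios of 1.45 and 1.37 were 0.46 and 0.96 without the 5 cells, and their ratios at P5 were -1.53 and -1.09. Adcy1, Cplx2 and Mgat4c also had ratios of 0.16 to 0.29 at P1 and of -0.84 to -1.25 at P5.

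The nMC genes differed less and the other way. Of those with enough counts, 4 of 28 were at least 2-fold higher at E16.5, 9 of 26 were so at P1 as were 5 of 23 at P5, and none was 2-fold lower. Over all counted genes 0.869%, 1.52% and 1.28% were higher. Above a ratio of 0 were 21, 23 and 20 genes. Their median log2 ratios were 0.26, 0.86 and 0.53, and 0.43 at E16.5 without the 5 cells. At P1, where depth differed most, the median was 0.16, over 15 genes, with every cell thinned to 2000 UMIs. Fam19a2, Nr2f1 and Erbb4, described above, were among them, as was Kcnip2, a modulator of A-type potassium channels, with 233 and 64.8 CPM at P5 (ratio 1.83 [1.46, 2.21]). Id2, an inhibitor of basic helix-loop-helix factors, had ratios of 1.69, 1.49 and 1.86, and Igfbp4, an insulin-like growth factor binding protein, 1.00, 1.85 and 1.92. Neither had enough counts in every library. The more abundant nMC genes Tcf4 (-0.06, 0.07 and -0.10), Zeb2 (-0.07, 0.21 and 0.11) and Mef2c (0.53, 0.24 and 0.30) differed little. Thsd7a was at 101 CPM against 172 CPM at P5, a ratio of -0.76.

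**Figure D3:**
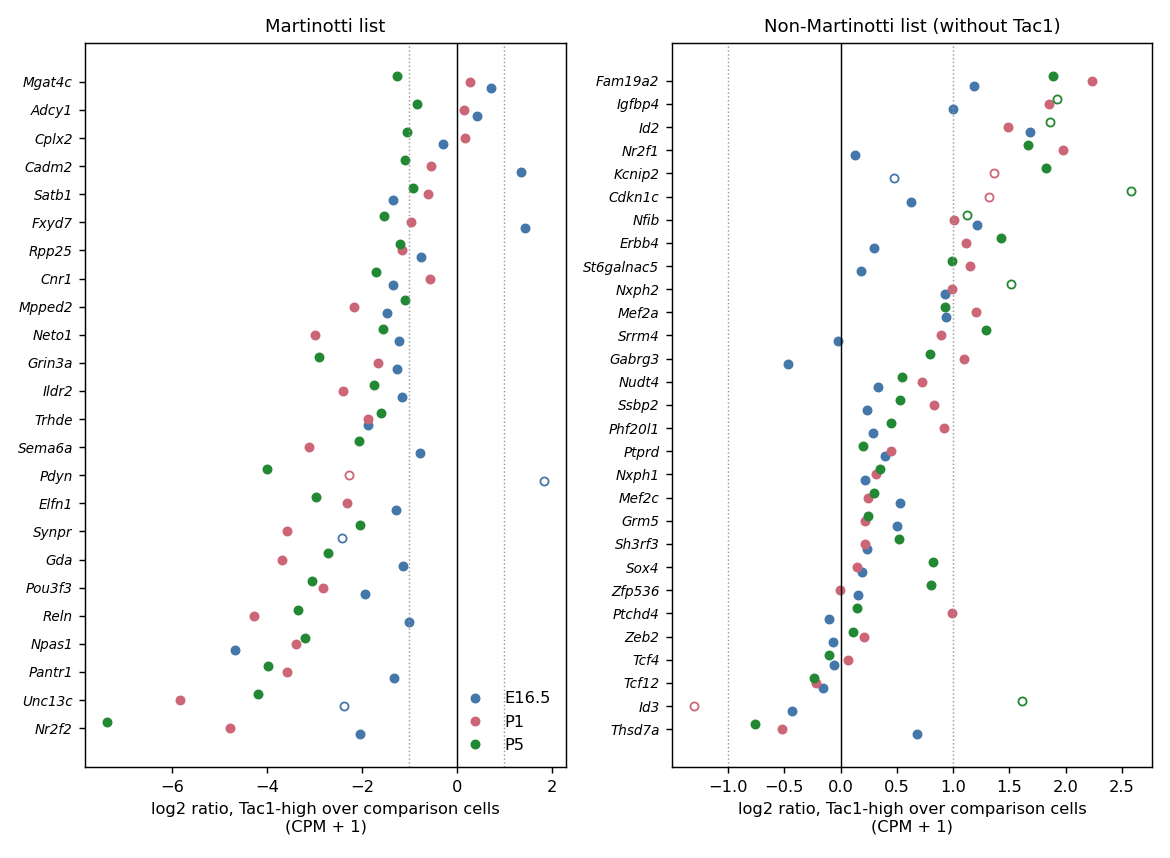
Log2 ratio of Tac1-high over comparison cells (horizontal axis) for each gene of the study's MC list (left) and nMC list (right), coloured by library. Filled points have enough counts and open points do not, and dotted lines mark 2-fold. The MC genes lie mostly below 0 (medians of the filled points -1.22, -2.31 and -1.89 at E16.5, P1 and P5) and the nMC genes mostly above (0.26, 0.86 and 0.53, without thinning to equal depth).

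At E16.5 and P5 the threshold of 3 Tac1 UMIs did not mark a step in these lists. Summed nMC genes, without Tac1, were at 7681 CPM at P5 in interneurons with 0 Tac1 UMIs, at 12394 CPM in cells with 1, at 12070 CPM in cells with 2, and between 8573 and 11502 CPM in the classes with 3 or more. Summed MC genes were at 11953 CPM in cells with 0 Tac1 UMIs and between 3160 and 4393 CPM in every class with at least 1. All cells with 0 Tac1 UMIs held Lhx6, which was not required of the other classes. At P5, 14 of the 55 cells with 1 Tac1 UMI and 7 of the 23 with 2 held none. At P1 the MC sums were 6504 CPM with 0 and 3866 and 3800 CPM with 1 and 2 Tac1 UMIs, and between 1575 and 3050 CPM with 3 or more. The nMC sums at P1 were 13209 CPM with 0 and 17352 and 16575 CPM with 1 and 2. They were 21034 CPM (18387 to 23956) in the 2 cells with 3, and 20480, 18309 and 15766 CPM in the classes above. At P1 the 2 cells with 3 Tac1 UMIs thus lay apart from the cells with 2 on both lists, but the classes above did not all do so. The nMC sum of the highest class was below those of cells with 1 and 2. The MC intervals of cells with 2 (3290 to 4366) and with 10 or more (2732 to 3394) overlapped. At E16.5 the MC sums were 3249 CPM with 0 and between 1441 and 2228 CPM in the other classes. The highest of these, the class with 10 or more, stood at 1534 CPM without the 5 cells. The nMC sums at E16.5 were 11732 CPM with 0 and between 14511 and 17895 CPM in the classes from 1 to 9 Tac1 UMIs. Cells with 1 or 2 Tac1 UMIs were therefore nearer to the Tac1-high cells than to cells without Tac1 on both lists at P5. Mme at P5 was at 107 CPM with 1 Tac1 UMI, 15.0 CPM with 0, and 18.5 CPM (1 UMI) in the 8 cells with 10 or more.

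**Figure D4:**
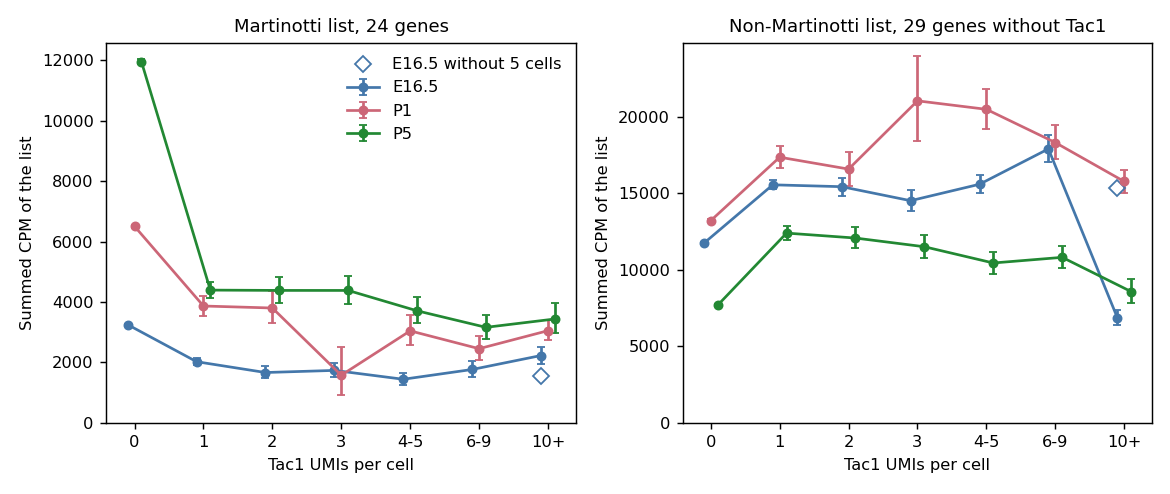
Summed CPM of the MC genes (left) and nMC genes (right) against the number of Tac1 UMIs per cell, by library, with 95% Poisson intervals. Cells with 1 Tac1 UMI hold fewer MC transcripts than cells with 0 (4393 and 11953 CPM at P5) and more nMC transcripts (12394 and 7681 CPM at P5), while the E16.5 class with 10 or more Tac1 UMIs stands at 6873 CPM of nMC genes with the 5 cells and at 15308 CPM without them (open diamond).

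Transcription factors of the medial ganglionic eminence and of interneurons were mostly near or below the comparison level. Of 23 genes, 4 of 18 counted were lower at E16.5, 3 of 17 in the P1 library and 7 of 16 in the P5 library, and 0, 1 and 2 were higher, beside 1.66%, 4.02% and 5.11% lower and 0.869%, 1.52% and 1.28% higher over all counted genes. Satb1, a chromatin organizer needed by SST+ interneurons, had log2 ratios of -1.34, -0.60 and -0.91, and the homeobox gene Dlx1 had -1.39, -0.70 and -1.62. Maf, a leucine zipper factor, had -0.11 at E16.5 and -1.62 at P5. Sp9, a zinc finger factor, was at 152 and 167 CPM at E16.5, 140 and 74.1 CPM at P1, and 149 and 34.7 CPM at P5. Its level was nearly the same in Tac1-high cells at each stage, and its ratio went from -0.14 (0.10 without the 5 cells) to 2.08 as comparison cells held less. Etv1, an ETS factor, had 118 and 33.8 CPM at P1 and 93.8 and 32.1 CPM at P5, too low to be counted in either library.

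Genes known from basket and PV+ interneurons lay in both directions. Pvalb itself had 0, 0 and 2 UMIs. Ppargc1a, a coactivator of mitochondrial genes, was at 62.0 and 27.8 CPM at E16.5, 298 and 92.4 CPM at P1, and 309 and 158 CPM at P5, with log2 ratios of 1.13, 1.68 and 0.97. Cox6a2, a subunit of cytochrome c oxidase, was at 76.4 and 10.9 CPM at P5 (22 UMIs in Tac1-high cells, too low to be counted). Kcnc2, a fast potassium channel of the Kv3 family, had a ratio of 0.81 [0.51, 1.10] at P5, and Kcnc1 had -0.17 [-0.72, 0.32]. Crhbp, a binding protein of corticotropin-releasing hormone, was lower at P1 and P5 (ratios -2.08 and -1.40), and Eya4 was lower at P5 (-1.71). Of 6, 6 and 8 genes counted, 1, 2 and 1 were at least 2-fold higher and 0, 1 and 2 lower, where 0.869%, 1.52% and 1.28% of all counted genes were higher and 1.66%, 4.02% and 5.11% lower.

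Among the genes of LRP neurons other than Nos1, Ptn was higher in all libraries but passed 2-fold at P1 and P5 alone. Man1a, a mannosidase, was at 22 and 29.6 CPM at E16.5, and had 0 UMIs against 103 CPM at P1 (at least 7.86-fold lower) and 0 UMIs against 32.1 CPM at P5 (at least 3.08-fold lower). Pde1a was at 10.4 and 78.0 CPM at P5 (3 UMIs, log2 ratio -2.79 [-5.18, -1.35]). Among other genes of SST subtypes, Rbp4, a retinol carrier, was at 105 and 46.9 CPM at P1 and 292 and 153 CPM at P5. Calb1, the calbindin gene, was at 544 and 279 CPM at E16.5 and at 167 and 193 CPM at P5. Olfm3 had 1 UMI against 44.3 CPM at P5 (log2 ratio -3.34 [-8.98, -1.18]), and Hpse, Crh and Chrna2 had 0 UMIs. Gpx3, a secreted glutathione peroxidase that accompanies Amelx and Irs4, had 118 and 50.7 CPM at P5 although cells with those genes had been removed.

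Glutamate receptor genes separated by subunit. Of 18 genes, 3 of 15 counted were lower at E16.5, 6 of 17 were lower in each postnatal library, and none was higher. The shares lower over all counted genes were 1.66%, 4.02% and 5.11%. The AMPA receptor subunits Gria1 to Gria4 lay between -0.35 and 0.71 in all libraries. Of the NMDA receptor subunits, Grin2b was level with comparison cells (0.03, -0.06 and -0.00), whereas Grin2a was at 4.38 and 118 CPM at P1 (1 UMI, log2 ratio -4.46 [-10.05, -2.27]) and 27.8 and 183 CPM at P5 (-2.68). The kainate subunit Grik2 was at 54.0 and 105 CPM, 17.5 and 201 CPM, and 59.1 and 118 CPM. The kainate auxiliary proteins Neto1 (-1.22, -2.99 and -1.56) and Neto2 (-0.65, -0.95 and -1.60) were also lower. The metabotropic receptor Grm5 was not (0.50, 0.22 and 0.24).

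Among GABA-A receptor subunits, Gabra2 was level with comparison cells at E16.5 (log2 ratio -0.08) and lower at P1 (-2.83) and P5 (-1.11). Gabrg3 was at 259 and 120 CPM at P1 and 347 and 200 CPM at P5. The genes for GABA synthesis and transport were near the comparison level, with none past 2-fold. Gad1 had ratios of 0.26, 0.54 and 0.60 and Slc32a1, the vesicular transporter, had -0.25, -0.20 and -0.03. The chloride transporter Slc12a5 had 0.01, -0.08 and -0.45.

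Synaptic organizers, the proteins that align the pre- and postsynaptic sides, included genes of both directions. Elfn1, a postsynaptic protein that sets the release properties of inputs onto SST+ interneurons, was at 72.0 and 178 CPM at E16.5, 52.6 and 265 CPM at P1, and 41.7 and 331 CPM at P5, with log2 ratios of -1.29, -2.31 and -2.96. Lrrtm2, a ligand of neurexins, had ratios of 0.63, 0.81 and 1.64. Nrxn3 was lower at P1 (-1.03 [-1.26, -0.82]). Nxph1, the more abundant relative of Nxph2, had ratios of 0.22, 0.31 and 0.35. Of 13 potassium and 8 sodium channel genes counted at P5, Kcnh7 (1.38) and Scn1a (1.03) were higher and Kcnd3 (2 UMIs, -3.36 [-6.59, -1.68]) and Scn9a (-1.24) lower, beside 1.28% higher and 5.11% lower over all counted genes. At P1 Kcnd3 (-1.15 [-2.82, 0.05]) and Scn9a (-1.39 [-3.06, -0.20]) were lower among 11 and 6 counted, and at E16.5 none of 12 and 7 passed 2-fold. The calcium sensor Ncald was at 622 and 229 CPM at P1 and 625 and 380 CPM at P5.

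Markers of immature and migrating neurons were lower in part. Sox11, a factor of newborn neurons, was at 1749 and 3725 CPM at E16.5 and 292 and 390 CPM at P5. Igfbpl1 was at 124 and 359 CPM at E16.5 and had 0 UMIs against 67.8 CPM at P1, at least 5.16-fold lower. The chemokine receptors Cxcr4 (1 UMI against 76.3 CPM at P1, log2 ratio -3.84 [-9.43, -1.64]) and Ackr3 (-0.62 and -2.27 at E16.5 and P1) were lower too, while Dcx (-0.25, 0.05 and -0.12) and Sox4 (0.19, 0.14 and 0.82) were not. The medians of the list were -0.41, -0.23 and -0.14, and those of 16 genes of maturing neurons were 0.23, 0.51 and 0.11. Of the latter, Olfm1 had ratios of 0.93, 1.07 and 0.80, and Scg2, also a member, is described above. Of the stress and dissociation genes, Jun had ratios of 0.85, 0.71 and 0.96, and none passed 2-fold. The part of cell depth, maturation and stress in the other differences was not tested.

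Some ratios moved with stage, although 1 library stood for each. Among genes counted at both E16.5 and P5, those with the largest gain were Fam135b (12 and 60.5 CPM at E16.5, 118 and 60.3 CPM at P5), Spon1 (6.00 and 36.8 CPM, then 160 and 166 CPM), Sp9, Paip2b and Sephs1. In Fam135b and Spon1 it was the level in Tac1-high cells that differed, from 6 and 3 UMIs at E16.5 to 34 and 46 at P5. Among the same genes, the largest losses were those of Nr2f2, Cdh7 (40.0 and 32.6 CPM, then 6.95 and 85.5 CPM), Stk32b (26.0 and 22.1 CPM, then 10.4 and 88.6 CPM), Luzp2 (66.0 and 21.0 CPM, then 20.8 and 56.7 CPM) and Frmd4b (14.0 and 23.6 CPM, then 3.47 and 58.0 CPM). Cdh7 was at 23.6 CPM at E16.5 without the 5 cells, and its ratio there was -0.45 in place of 0.29. At P5 Cdh7 had 2 UMIs (log2 ratio -3.44 [-6.67, -1.76]), Stk32b 3 UMIs (-2.97 [-5.37, -1.54]) and Frmd4b 1 UMI (-3.72 [-9.37, -1.58]). For these 4, the comparison level at P5 was higher than at E16.5 and the Tac1-high level lower.

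The Tac1-high cells also differed among themselves. At P5 the 31 cells with an Sst UMI and the 25 without had median depths of 4731 and 4606 UMIs. Cort was at 1700 CPM (1509 to 1909) in cells with Sst and 635 CPM (501 to 795) in cells without, Npy at 333 and 58.5 CPM, and Rbp4 at 404 and 134 CPM. Etv1 was at 35.7 CPM (13.1 to 77.6) and 176 CPM (109 to 268), Mme at 65.4 and 184 CPM, and Mef2c at 1296 and 2157 CPM. The level of Erbb4 was 392 CPM (303 to 499) in cells with Sst and 435 CPM (325 to 570) in cells without, and that of Tac1 1332 and 1196 CPM, with intervals that overlapped. At P5 30 of the 31 cells with Sst also held Cort, where independent detection would give 24.9. At P1, with 17 and 16 cells of 7673 and 5947.5 median UMIs, Cort had 326 CPM (235 to 441) and 111 CPM (55.2 to 198), and Mef2c 2214 and 3328 CPM, in the same order. Etv1 had 85.4 CPM (42.7 to 153) and 161 CPM (92.0 to 261), while Mme (62.1 and 70.4 CPM) and Rbp4 (117 and 90.5 CPM) were nearly level, with intervals that overlapped. At E16.5, without the 5 cells, Cort had 150 CPM (107 to 204) in the 36 cells with Sst, where 1 cell held 17 of the 40 UMIs. The 29 cells without Sst had 38.2 CPM of Cort (14.0 to 83.1). Mef2c had 1031 and 2405 CPM. Etv1 was in the opposite order there, at 90.0 CPM (57.6 to 134) and 38.2 CPM (14.0 to 83.1).

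Splitting on Mme gave a like pattern at P5. The 22 cells with an Mme UMI had 188 CPM of Etv1 (117 to 288), 871 CPM of Cort (706 to 1062) and 117 CPM of Npy, and the 34 without had 34.0 CPM (12.5 to 74.0), 1502 CPM (1327 to 1694) and 283 CPM. At P1 Etv1 had 127 and 111 CPM and Cort 137 and 310 CPM in the 10 cells with and 23 without Mme, whose median depths were 9836.5 and 5580 UMIs. Cck did not follow either split at P5, with 260 and 210 CPM by Mme and 220 and 242 CPM by Sst. At P1 the values lay apart. Cck was at 557 CPM (422 to 721) in cells with Mme and 87.4 CPM (43.6 to 156) in cells without. It was at 140 CPM (82.9 to 221) in cells with Sst and 503 CPM (373 to 663) in cells without. Both P1 splits rested largely on the deep cells with 16, 16, 14 and 10 Cck UMIs. All of these held Mme, and only the last held Sst (1 UMI). Mme and Cck were found together in 5 cells at P1 and 7 at P5, where independent detection would give 3.03 and 8.25. Erbb4 mRNA was found in 33 of 33 cells at P1 and 46 of 56 at P5. The intervals of these splits cover counting error within 1 library of pooled animals and not differences between animals.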

How the data were processed

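GFP+ cells of the NCx were profiled at E16.5, P1 and P5 (1 library each), with the stage taken from the labels. Per the file headers, Cell Ranger was version 3.0.2 for the P1 library and 3.1.0 for both others, and per the submitters' processing notes the genome build was GRCm38. The authors deposited raw UMI counts of 31053 genes per cell, without normalization. The libraries held 25638779, 15654107 and 13429055 UMIs in 4478, 4440 and 3406 cells. Counts of genes with near-identical 3′ ends are uncertain.

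Counts were summed over cells and set to CPM with pandas 2.3.3, scipy 1.17.1 and numpy 2.4.6 under Python 3.11.15. Figures were drawn with matplotlib 3.10.9. Poisson and Clopper-Pearson intervals were exact, at 95%, and UMI counts of cells from 1 library are not replicates, so no p-value was computed. Calling was checked on simulated data. Gene positions were from GENCODE M21. Tac1 and Lhx6 entered the choice of cells and were not compared.

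Genes were named by rule. All label markers, tachykinin genes, receptors and peptidases were named, then up to 4 genes per list farthest from 0 in the library where they lay nearest to it, then unlisted genes by the same measure (10 each way), and the 5 largest gains and losses from E16.5 to P5 among genes counted at both. Further list members were described after their values were seen. Values of some genes are not reported here. The Tac1-high cells, the lists and the choice of comparison were made with earlier results of these data known. No doublet caller was run, and cells above the 95th percentile of UMIs were left out in an alternative. In all, 20 planned and 4 later alternatives were tried, on the Tac1 threshold, quality control, comparison cells, scaling, pseudocount and filters.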

Additional observations from a re-analysis of the deposited data

Results flagged for a closer look

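Of the listed and named genes counted at E16.5 and P5, 3 were at least 2-fold higher in Tac1-high cells at E16.5 and at least 2-fold lower at P5. Their intervals left out 0 at both stages. Other counted genes were not screened for this, so no share over all counted genes can be set beside it. The log2 ratio at E16.5 exceeded that at P5 by 2.98 for Fxyd7, by 2.46 for Cadm2 and by 3.01 for Luzp2. With 1 library per stage the difference was not tested. Without the 5 cells that held striatal or excitatory mRNA, the ratios at E16.5 were 0.46, 0.96 and 1.20, in place of 1.45, 1.37 and 1.61.

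Cells with at least 3 Tac1 UMIs also lay outside the rule. A UMI of Nos1, Amelx or Irs4 left out 8, 6 and 15 such cells of the E16.5, P1 and P5 libraries. At P5 11 of the 15 held Irs4. Quality control had removed a further 5, 36 and 8 cells with at least 3 Tac1 UMIs, of which 5, 35 and 7 had a mitochondrial share of 10% or more, with medians of 14.2%, 14.8% and 12.2%.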

How the results depend on the processing

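No paired analysis was possible because each stage had 1 library. The medians of the MC genes kept their sign in all 59 values obtained, between -1.33 and -1.05 at E16.5, -2.42 and -1.73 at P1, and -2.11 and -1.73 at P5. The same alternatives gave 60 medians of the nMC genes, so an MC gene was not counted in every case. Over 17 results of comparisons, 168 values moved by less than the stated error or 1.5 times, 30 moved further and 1 reversed. The cause was not tested unless the alternative itself held fewer cells or genes.

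The share of Tac1-high cells at E16.5 and P5 was 2.51% and 2.65% with at least 2 Tac1 UMIs, 0.936% and 1.07% with at least 5, and 0.633% and 1.11% with at least 2 UMIs and 1000 CPM of Tac1. Genes higher in all 3 libraries then numbered 8, 2 and 1 in place of 4 (the 2, Plxna4 and Ptn, were not among the 4), and under the last rule 11 in place of 18 were lower and the nMC median at E16.5 was 0.095. Sephs1 was at 0.14 at E16.5 under that rule.

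A mitochondrial share under 5% with over 1000 genes left 0.297% of cells at P1, which were 2 cells. There 0 genes were higher and 1 lower, and the nMC median at P1 was -0.57, with AI593442 at -6.99, Tenm4 at 0.54, Id2 at -0.13, Nfib at -7.72, Elfn1 at 0.22 and Gabra5 at -5.34. Tac1 was then in 0% of excitatory cells at E16.5 and in 0.592% of Nos1 cells at P1. With every cell thinned to 2000 UMIs, 1 gene was higher and 8 lower, the nMC median at P1 was 0.16, and Lgi2 and Gabra5 at P1 were at -0.011 and -0.33. Without cells above the 95th percentile of UMIs 1 gene was higher.

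With no filter on low counts 90 genes were higher and 186 lower, with 30 expected UMIs 0 and 10, at 1.5-fold 29 and 51, and without the E16.5 library 14 and 65. Of alternatives chosen after seeing the data, no limit on the mitochondrial share gave 7 higher and Paip2b at 0.22 at E16.5, and counting genes with 10 UMIs in Tac1-high cells gave 19 higher. Without the 5 cells of other classes at E16.5, 3 of the 4 higher genes and 16 of the 18 lower genes remained, with Robo1, Ildr2 and Klf5 lost and 5 genes, Reln among them, gained. Depth limits genes under 13.1 CPM at P1, where 33 cells were summed.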

Other observations

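In the 11 cells with at least 3 Tac1 UMIs and a UMI of Amelx or Irs4, Cck was at 571 CPM, Cort at 742 CPM and Mme at 157 CPM, beside 229, 1258 and 115 CPM in the 56 Tac1-high cells. Reln and Nr2f2 had 0 UMIs there. The 6 cells at E16.5 with at least 3 Tac1 UMIs and a Nos1 UMI held 9601 CPM of Sst, against 2127 CPM in Tac1-high cells. These values rest on few cells of 1 library each.

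Without the limit on the mitochondrial share, the Tac1-high cells at P1 would number 66 in place of 33, and those at E16.5 and P5 75 and 61.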
